A study of Mus musculus with 21 samples.

Results

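The genes described here are 43 genes whose products copy chromosomal DNA or supply its nucleotides, followed in mouse haematopoietic stem cells (HSCs). They were chosen by name, with earlier results of these data known, from the gene count table, which holds 47729 genes. Their shares beside those of all genes are therefore descriptions. They were read in all 21 libraries. They fall into 8 roles: the replicative helicase MCM2-7 (6 genes), licensing factors (3), helicase activation (6), the sliding clamp and its loader (6), replicative polymerases and primase (8), Okazaki fragment joining and single-strand binding (5), nucleotide supply (5), and chromatin assembly with histone mRNA (4). The cells were freshly isolated bone marrow HSCs, sorted as CD48- LSK CD150+, and the series as a whole asked how such cells handle misfolded protein and how far they depend on autophagy of aggregates. One experiment had 4 groups of 3 libraries: wild-type (WT) mice given 10% DMSO, WT mice given bortezomib, Mx1-Cre;Atg5fl/fl mice given 10% DMSO, and Mx1-Cre;Atg5fl/fl mice given bortezomib. Bortezomib, a proteasome inhibitor, was given at 10 mg/kg, and both agents were injected retro-orbitally 48 h and 24 h before analysis. The Mx1-Cre;Atg5fl/fl libraries are titled Atg5-/- (their genotype field reads Atgfl/fl) and are called knockout-labelled here; Atg5 is needed to build autophagosomes. Cre in these mice is driven by the interferon-responsive Mx1 promoter, the labels do not say how it was induced, and the mice given as wild type are not stated to carry Cre. The other experiment had 3 groups of 3 libraries from untreated RFP-EGFP-LC3 autophagy reporter mice, sorted by the 2 colours of the reporter into cells with RFP alone (single positive), with both RFP and GFP (double positive) and with neither (double negative). Age was not stated for any group, and the labels do not say whether the libraries of a group came from separate animals, so every p-value measures only the spread between these libraries.

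As background, replication begins when Cdc6 and Cdt1 load the MCM2-7 ring on origins in G1, a step that geminin (Gmnn) blocks after S phase has begun. Cdc45 and the GINS complex then turn the ring into an active helicase, DNA polymerase alpha with primase lays primers, and polymerases delta and epsilon extend them behind the PCNA clamp, while ribonucleotide reductase, thymidylate synthase, thymidine kinase and dUTPase keep the deoxynucleotide pools in supply. Most adult HSCs rest outside the cycle, and messages of these genes rise as cells approach S phase, driven in part by E2F factors.

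Total counts ran from 15005500 to 31481691 per library, and all 43 genes passed the low-count filter in both experiments, with 58692 to 256585 counts falling on them per library. Counts of the whole Atg5 gene, which cannot show the loss of a floxed exon, were not lower in the knockout-labelled groups (95.2 to 142 CPM, counts scaled to library size times a TMM normalisation factor, over both) than in WT DMSO (39.9 to 74.6 CPM) or WT bortezomib (72.1 to 135 CPM). The share of Xist in Xist plus Ddx3y counts was 99.2%, 98.6% and 59.98% in WT DMSO, 46.4%, 31.8% and 90.3% in WT bortezomib, 0.235%, 0.39% and 0.987% in knockout-labelled DMSO and 100%, 0% and 3.51% in knockout-labelled bortezomib, so the sex-linked RNA differed between groups and several libraries held both kinds. Library 3 of WT DMSO, of WT bortezomib and of the knockout-labelled bortezomib group stood apart along the third principal component (-65.2 to -38.0, against -3.12 to 38.3 in the other 9 treatment libraries). The 12 HSC identity genes were all detected in every group.

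Promoter windows from RefSeq (GRCm38.p6; 250 bases before to 50 after the start site) were at hand for 35 of the 43 genes. The windows were searched on both strands for the E2F motif in the forms TTTCCCGC, TTTCGCGC, TTTGCCGC and TTTGGCGC, for CCAAT, and for the cell-cycle homology motif TTTGAA; matches to different motifs may share bases, and each motif was counted for itself. The E2F letters were in the windows of 13 of 35 genes (37.1%) against 2.605% of all 27025 genes with a window. CCAAT was in 62.9% against 41.1%, and TTTGAA in 14.3% against 20.2%. The 13 genes with E2F letters were Cdc6, Cdt1, Gins3, Lig1, Mcm3, Mcm5, Mcm6, Mcm7, Pola1, Pold1, Pole2, Rfc3 and Uhrf1. Of these, 3 and 1 gene without the letters are shown here by the 170 bases before the start site, since Mcm5, Pola1 and Tyms carry some of the responses described further on and Mcm6 holds the most matches in the stretch; capitals mark the E2F letters, which overlap on the strands in Mcm5 and at 1 place in Mcm6.
Mcm5, chr8:75109339-75109508 (+ strand): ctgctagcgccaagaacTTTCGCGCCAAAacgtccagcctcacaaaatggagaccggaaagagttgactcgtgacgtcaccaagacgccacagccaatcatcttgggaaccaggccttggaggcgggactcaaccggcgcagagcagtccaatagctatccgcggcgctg
Mcm6, chr1:128359706-128359875 (- strand): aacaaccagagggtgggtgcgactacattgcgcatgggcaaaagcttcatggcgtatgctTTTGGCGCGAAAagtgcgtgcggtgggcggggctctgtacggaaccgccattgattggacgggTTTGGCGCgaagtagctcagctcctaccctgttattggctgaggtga
Pola1, chrX:93632156-93632325 (- strand): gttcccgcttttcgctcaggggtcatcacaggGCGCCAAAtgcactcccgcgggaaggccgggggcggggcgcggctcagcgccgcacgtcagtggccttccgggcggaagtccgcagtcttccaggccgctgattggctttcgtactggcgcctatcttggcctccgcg
Tyms, chr5:30073626-30073795 (- strand): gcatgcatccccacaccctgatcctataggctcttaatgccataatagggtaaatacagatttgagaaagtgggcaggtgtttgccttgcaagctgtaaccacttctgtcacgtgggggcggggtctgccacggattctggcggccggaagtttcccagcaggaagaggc
The Tyms stretch holds none of the 4 forms, which says only that these letters are not there.

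As a sum, the 43 messages were highest in WT HSCs after bortezomib and lowest in knockout-labelled HSCs after bortezomib. The summed level was 6731, 6411 and 6066 CPM in the 3 WT DMSO libraries and 11194, 10595 and 8845 CPM in WT bortezomib, a ratio of means of 1.59. In the knockout-labelled libraries it was 7521, 7209 and 4394 CPM with DMSO and 4190.1, 2994 and 3928 CPM with bortezomib, a ratio of 0.581. Every WT bortezomib library therefore lay above every other treatment library, and every knockout-labelled bortezomib library lay below every other one, with WT bortezomib 2.76 times knockout-labelled bortezomib. The TMM factors were 0.875 to 0.904 in WT bortezomib and 0.990 to 1.07 in the other treatment libraries. Library sizes are multiplied by these factors before CPM is taken, so by arithmetic this scaling raises the ratios of WT bortezomib to other groups. The ratios without it were not computed. The third knockout-labelled DMSO library stood apart from its pair: it was the lowest of its group for 42 of 43 genes and at or under the highest knockout-labelled bortezomib library for 29. Such shifts of most of the set were seen in other groups too. WT bortezomib 3 was the lowest of its group for 38 of 43 genes and knockout-labelled bortezomib 2 for 31. In the reporter experiment, RFP single positive library 1 was the lowest for 35. In bulk RNA such as this, fewer cells making a message and less message per cell cannot be told apart. Gene by gene, WT bortezomib had the highest group mean for 39 of 43 genes, knockout-labelled bortezomib the lowest for 41, and both held for 38.

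**Figure D1:**
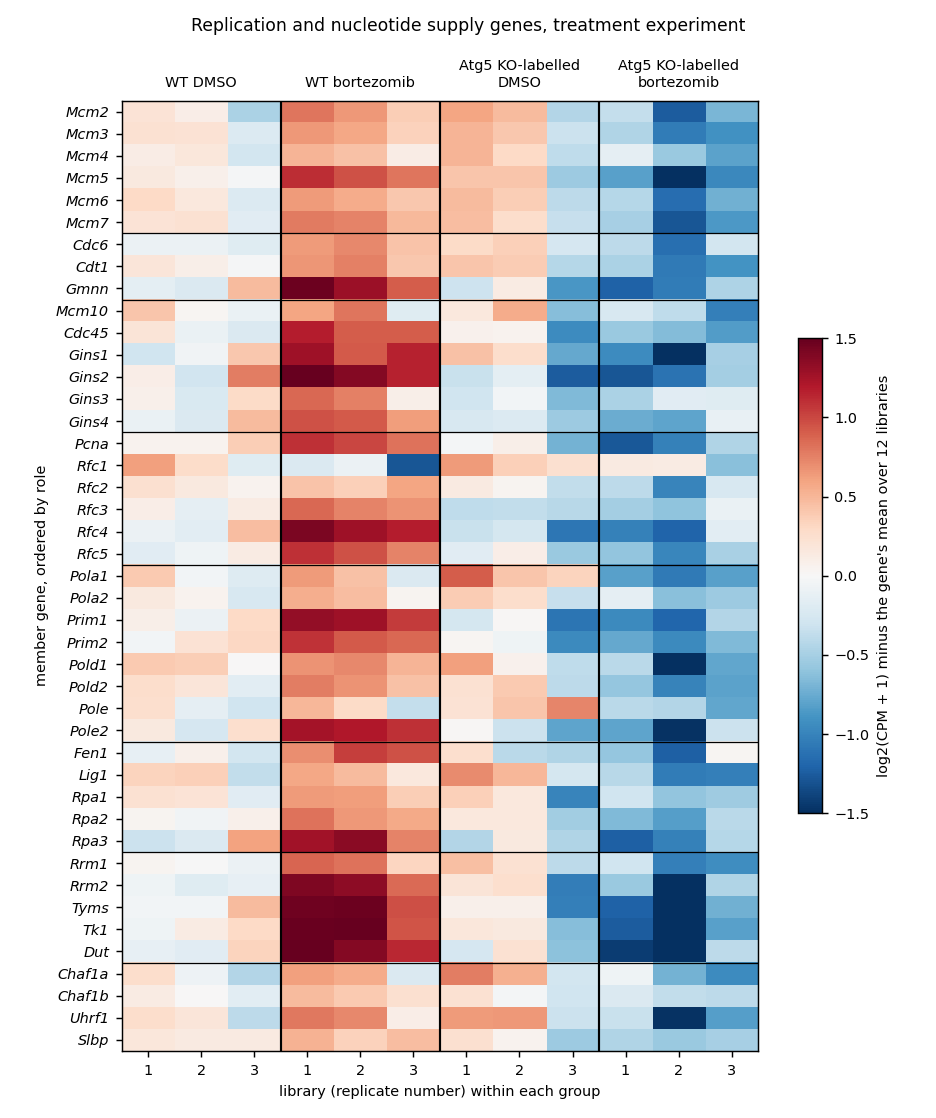
Level of each of the 43 genes (rows, ordered by role, lines between roles) in each of the 12 treatment libraries (columns), as log2(CPM + 1) minus the gene's mean over the 12 libraries; red is above and blue below that mean, and colours saturate at the ends of the scale. The WT bortezomib columns are red and the knockout-labelled bortezomib columns blue for nearly every gene, Rfc1 apart, and knockout-labelled DMSO 3 is paler or bluer than its pair.

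The genome-wide test, edgeR's quasi-likelihood test with Benjamini-Hochberg adjustment over 16149 genes, was read at an adjusted p under 0.05. In WT HSCs, 22 of 43 genes (51.2%) rose with bortezomib, where 7.97% of all tested genes rose and 7.56% fell, and the median log2 fold change of the 43 was 0.66 against -0.04 over all genes. None fell by edgeR; 1 gene was lower at an unadjusted p under 0.05, DESeq2 called 0 lower and limma voom 1. The WT groups did not overlap for 33 genes (76.7%), all higher with bortezomib, against 19.3% of all genes. The count moved with individual libraries, as did the calls over all genes: leaving out WT DMSO 1 gave 7 genes (16.3%, against 2.52% of all genes called higher), WT DMSO 2 gave 2 (4.65% against 1.88%), WT bortezomib 1 gave 2 (4.65% against 1.66%) and WT bortezomib 2 gave 11 (25.6% against 3.85%). The median of the 43 was 0.58 to 0.76 over these and the other leave-one-out fits. With the Xist share as a covariate 14 rose (32.6% against 5.15%). DESeq2 called 24 (55.8% against 11.1%) and limma voom 30 (69.8% against 18.5%). Without the 3 libraries that lie apart on the third component the count was again 22 (51.2% against 12.8%).

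In knockout-labelled HSCs the direction was the opposite. With bortezomib, 11 of 43 genes (25.6%) fell, where 1.61% of all tested genes fell and 2.02% rose (3.63% in all), with a median of -0.66 against 0.00 over all genes, and 0 rose by edgeR, DESeq2 or limma voom or at an unadjusted p under 0.05. The groups did not overlap for 14 genes (32.6%), all lower, against 9.73% of all genes. This count too moved with individual libraries: leaving out knockout-labelled DMSO 1 gave 3 genes (6.98%, against 0.638% of all genes called lower), DMSO 2 gave 1 (2.33% against 0.412%) and bortezomib 2 gave 2 (4.65% against 0.445%). Leaving out knockout-labelled DMSO 3, the library that stood low, gave 22 (51.2% against 1.42%, the share of all genes being no higher than with it), and the median of the 43 was -0.89 to -0.55 over the leave-one-out fits. The count was 21 by DESeq2 (3.46% of all genes), 24 by limma voom (4.88%), 23 without a low-count filter (2.13%), 23 without the 3 libraries that lie apart (6.20%), 18 with length and GC offsets (2.46%) and 4 when only these 6 libraries were fitted (0.616%).

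Set directly against each other, the bortezomib-treated groups differed in 42 of 43 genes (97.7%), all lower in the knockout-labelled libraries, where 15.3% of all tested genes were lower and 32.4% differed in either direction. The median difference was -1.41 on the log2 scale against 0.08 over all genes, and for 41 genes every knockout-labelled library was under every WT library, against 21.8% of all genes. The count was 42 under each alternative other than leaving libraries out, where 9.71% to 21% of all genes were lower. It was 36 to 42 when each library was left out in turn (10.6% to 17.3% of all genes). With DMSO, by contrast, no gene differed between genotypes by edgeR (0% of all genes were called), DESeq2 or limma voom; 5 of 43 had an unadjusted p under 0.05, 2 higher and 3 lower, and the median was -0.05. Groups did not overlap for 2 genes, Rfc3 and Rfc4, both lower (4.65%, against 8.63% of all genes lower and 9.39% higher). The test of the difference between the responses themselves, the genotype by bortezomib interaction, was passed by 30 of 43 genes (69.8%), all with the lower response in knockout-labelled HSCs, where 4.71% of all genes passed in that direction, 4.35% in the other and 9.05% in all, and the median difference was -1.46. The count was 39 by DESeq2, where 7.74% of all genes passed in that direction. It was 42 by limma voom (14.8% of all genes) and 40 without the 3 libraries that lie apart (12.9%). With the Xist share as a covariate 13 passed (30.2%), where 0.774% of all genes passed in that direction. Leaving out WT DMSO 2 gave 17 (39.5% against 1.14%), WT bortezomib 1 gave 16 (37.2% against 1.06%) and knockout-labelled DMSO 2 gave 13 (30.2% against 0.977%), and the median was -1.64 to -1.34 over the leave-one-out fits. These comparisons share libraries: the WT bortezomib and knockout-labelled groups each enter several of them.

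**Figure D2:**
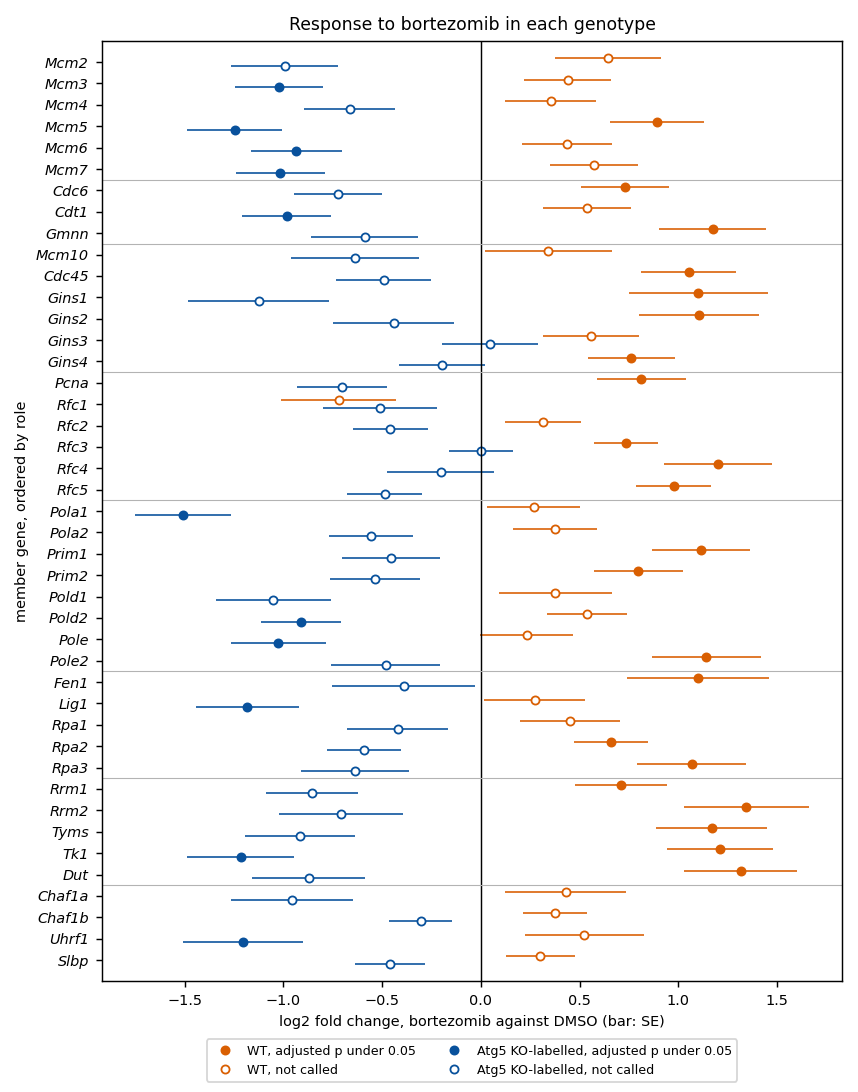
Log2 fold change with bortezomib against DMSO for each gene (rows, ordered by role) in WT (orange) and knockout-labelled (blue) HSCs; bars are standard errors, and filled points have an adjusted p under 0.05. Orange points lie right of 0 for 42 of 43 genes and blue points left of it for 42; the filled ones number 22 and 11.

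The MCM2-7 subunits form the ring that unwinds the duplex. Mcm5 was at 313, 296 and 279 CPM in WT DMSO, 609, 545 and 492 in WT bortezomib, 375, 377 and 192 in knockout-labelled DMSO and 160.1, 94.1 and 144 in knockout-labelled bortezomib. The WT bortezomib libraries were the highest and the knockout-labelled bortezomib libraries the lowest, with no overlap between either and its own DMSO group. Its log2 fold change was 0.89 (SE 0.24, adjusted p = 0.021) in WT and -1.25 (SE 0.24, adjusted p = 0.00901) in knockout-labelled HSCs; between the bortezomib groups it was -2.05 (SE 0.25, adjusted p = 0.000117), and the responses differed by -2.14 (SE 0.34, adjusted p = 0.00494). Mcm7 was at 362, 368 and 280.2 CPM in WT DMSO, 538, 528 and 439 in WT bortezomib, 433, 378 and 246 in knockout-labelled DMSO and 222, 129 and 172 in knockout-labelled bortezomib, and Mcm3 at 435, 429.7 and 322 CPM in WT DMSO, 581, 555 and 471 in WT bortezomib, 529, 490.2 and 295 in knockout-labelled DMSO and 270.0, 179 and 197 in knockout-labelled bortezomib. Neither gene's treated and DMSO groups overlapped in either genotype. In knockout-labelled HSCs Mcm7 fell, with a log2 fold change of -1.02 (SE 0.23, adjusted p = 0.0193), and so did Mcm3, at -1.02 (SE 0.22, adjusted p = 0.0167). In WT their values, 0.57 and 0.44, did not pass the test. Of the 6 subunits, 1 rose in WT (range 0.35 to 0.89), 4 fell in knockout-labelled HSCs (range -1.25 to -0.66), 6 were lower between the bortezomib groups and 5 differed in response. The Mcm5 rise in WT did not hold without WT DMSO 1, WT DMSO 2, WT bortezomib 1 or WT bortezomib 2 (adjusted p 0.0567 to 0.0935), and its fall did not hold without knockout-labelled DMSO 2 (0.0579). Those of Mcm7 and Mcm3 did not hold without knockout-labelled DMSO 1, DMSO 2 or bortezomib 2 (0.0805 to 0.102) or with only the 6 libraries fitted (0.0653 and 0.0582). Of the 4426 exonic bases of Mcm7, 321 lie over Ap4m1 and 64 over Cops6, both on the other strand.

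Licensing turns on Cdc6 and Cdt1, which load the ring, and Gmnn, which holds Cdt1 in check. Gmnn was at 81.5, 77.3 and 126 CPM in WT DMSO, 252, 220.0 and 169.97 in WT bortezomib, 72.8, 98.4 and 48.9 in knockout-labelled DMSO and 38.2, 42.9 and 65.1 in knockout-labelled bortezomib. All 3 WT bortezomib libraries were above all WT DMSO libraries, while the knockout-labelled groups overlapped. Gmnn rose in WT, with a log2 fold change of 1.17 (SE 0.27, adjusted p = 0.0116), and between the bortezomib groups it was -2.13 (SE 0.28, adjusted p = 0.000166). Cdt1 was at 72.4, 67.6 and 62.6 CPM in WT DMSO, 101, 108 and 84.4 in WT bortezomib, 85.2, 83.1 and 46.9 in knockout-labelled DMSO and 45.4, 29.9 and 33.7 in knockout-labelled bortezomib. Here the knockout-labelled groups did not overlap, the highest bortezomib library standing just under the lowest DMSO library. Cdt1 fell in knockout-labelled HSCs, at -0.98 (SE 0.23, adjusted p = 0.0232), and its responses differed by -1.52 (SE 0.32, adjusted p = 0.0124). Of the 3 genes, 2 rose in WT (Cdc6 and Gmnn), 1 fell in knockout-labelled HSCs, and all 3 were lower between the bortezomib groups and differed in response. The Gmnn rise did not hold without WT DMSO 1, WT DMSO 2 or WT bortezomib 1 (adjusted p 0.057 to 0.0665), nor the Cdt1 fall without knockout-labelled DMSO 1, DMSO 2 or bortezomib 2 (0.103 to 0.121) or with only the 6 libraries fitted (0.079).

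Helicase activation joins Cdc45 and the 4 GINS subunits to the ring with the help of Mcm10. Cdc45 was at 46.6, 37.8 and 34.9 CPM in WT DMSO, 93.0, 77.2 and 77.4 in WT bortezomib, 42.5, 42.3 and 20.6 in knockout-labelled DMSO and 27.4, 25.6 and 22.2 in knockout-labelled bortezomib. The WT bortezomib libraries lay above every WT DMSO library, and the knockout-labelled groups overlapped through DMSO library 3. Cdc45 rose in WT, at 1.05 (SE 0.24, adjusted p = 0.011), and its responses differed by -1.54 (SE 0.34, adjusted p = 0.0152). Gins2 was at 50.3, 38.3 and 80.6 CPM in WT DMSO, 135, 123 and 106 in WT bortezomib, 37.0, 42.4 and 19.1 in knockout-labelled DMSO and 18.7, 21.2 and 32.7 in knockout-labelled bortezomib. Its WT groups did not overlap, and the difference between the bortezomib groups was -2.32 (SE 0.32, adjusted p = 0.000191). Most of the exonic length of Gins2 lies over exons of Gse1 on the other strand, and since the strand setting of the counting is not given, reads of the pair cannot be told apart. Of the 6 genes, 4 rose in WT, 0 fell in knockout-labelled HSCs by edgeR (1 at an unadjusted p under 0.05), 6 were lower between the bortezomib groups and 3 differed in response. The Cdc45 rise did not hold without WT DMSO 2 (adjusted p 0.0578) or WT bortezomib 1 (0.0596), and its difference in response did not hold with the Xist share as a covariate (-1.67, adjusted p 0.0525) or without knockout-labelled DMSO 2 (0.0559) or either of those WT libraries (0.05 and 0.0518).

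The clamp PCNA tethers polymerases to DNA, and the RFC complex loads it. Rfc5 was at 179, 192 and 219.6 CPM in WT DMSO, 432, 390.4 and 338 in WT bortezomib, 178, 215 and 136 in knockout-labelled DMSO and 133, 101 and 143 in knockout-labelled bortezomib. The WT groups were well apart, and the knockout-labelled groups overlapped. Rfc5 had the smallest p of the 43 in WT, with a log2 fold change of 0.98 (SE 0.19, adjusted p = 0.0055), which held under all alternatives run, leaving out each library included; it was -1.62 (SE 0.19, adjusted p = 0.000117) between the bortezomib groups and its responses differed by -1.46 (SE 0.27, adjusted p = 0.00819). Rfc4 was at 87.1, 83.0 and 128 CPM in WT DMSO, 248, 226 and 212 in WT bortezomib, 73.3, 77.5 and 43.2 in knockout-labelled DMSO and 45.6, 39.9 and 83.0 in knockout-labelled bortezomib. It rose in WT, at 1.202 (SE 0.27, adjusted p = 0.0107), and so did Rfc3, at 0.73 (SE 0.16, adjusted p = 0.00952). Pcna was at 188, 188 and 234 CPM in WT DMSO, 387, 364 and 319.8 in WT bortezomib, 177, 193 and 111 in knockout-labelled DMSO and 74.3, 88.8 and 132 in knockout-labelled bortezomib; its WT groups did not overlap and it was among the 4 of 6 genes that rose in WT. No gene of this role fell in knockout-labelled HSCs by edgeR (3 had an unadjusted p under 0.05), 5 were lower between the bortezomib groups and 3 differed in response. The rises of Rfc4 and Rfc3 did not hold without WT DMSO 2 (adjusted p 0.0631 and 0.064) or WT bortezomib 1 (0.0529 and 0.0574), nor that of Rfc4 without WT DMSO 1 (0.0533); Rfc5 shares exonic bases with Wsb2 on the other strand, and Pcna has a pseudogene, Pcna-ps2, with its own counts.

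Rfc1, the large subunit of the loader, is described because it was the exception, and was singled out after its values were seen. It was at 149, 117 and 85.6 CPM in WT DMSO, 83.0, 91.3 and 39.2 in WT bortezomib, 152, 124 and 114 in knockout-labelled DMSO and 106, 106 and 62.5 in knockout-labelled bortezomib. In WT, 2 bortezomib libraries were under all DMSO libraries and the other lay within their range, and the knockout-labelled groups did not overlap, bortezomib being lower; the other 42 genes had positive log2 fold changes in WT. None of its values passed the test in the main edgeR fit: -0.72 (SE 0.29, adjusted p = 0.104) in WT, -0.51 (SE 0.29, adjusted p = 0.409) in knockout-labelled HSCs and 0.36 (SE 0.29, adjusted p = 0.373) between the bortezomib groups. It was the only one of the 43 called in no treatment comparison by that fit. Under 4 alternatives 1 of the 43 genes was called lower in WT, and Rfc1 alone had a negative WT value in the main fit. These were limma voom, no low-count filter, a replicate block, and the fit without the 3 libraries that lie apart.

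Among polymerases, Pola1 is the catalytic subunit of polymerase alpha and Prim1 the catalytic primase subunit bound to it. Prim1 was at 115, 102 and 133 CPM in WT DMSO, 270.4, 263 and 224 in WT bortezomib, 89.5, 109 and 50.03 in knockout-labelled DMSO and 55.2, 46.7 and 79.5 in knockout-labelled bortezomib. All WT bortezomib libraries were above all other treatment libraries. Prim1 rose in WT, at 1.11 (SE 0.25, adjusted p = 0.0099), and was -2.06 (SE 0.26, adjusted p = 0.000132) between the bortezomib groups. Pola1 was at 62.9, 46.4 and 41.7 CPM in WT DMSO, 75.0, 65.5 and 41.1 in WT bortezomib, 91.0, 64.4 and 60.7 in knockout-labelled DMSO and 26.8, 22.5 and 26.7 in knockout-labelled bortezomib. Its WT groups overlapped, while all knockout-labelled bortezomib libraries were under all other treatment libraries. Pola1 had the smallest p of the 43 in knockout-labelled HSCs, -1.51 (SE 0.24, adjusted p = 0.00283), which held in all alternatives run, and its WT value of 0.27 did not pass; the responses differed by -1.77 (SE 0.34, adjusted p = 0.0093). Pold2, a small subunit of polymerase delta, was at 166, 156 and 123 CPM in WT DMSO, 236, 221 and 188 in WT bortezomib, 162, 182 and 105 in knockout-labelled DMSO and 92.3, 68.3 and 78.5 in knockout-labelled bortezomib. It fell in knockout-labelled HSCs, at -0.91 (SE 0.20, adjusted p = 0.0202), as did Pole, the catalytic subunit of polymerase epsilon, at -1.03 (SE 0.24, adjusted p = 0.0248). Of the 8 genes, 3 rose in WT (Prim1, Prim2 and Pole2), 3 fell in knockout-labelled HSCs (Pola1, Pold2 and Pole), 8 were lower between the bortezomib groups and 7 differed in response. The Prim1 rise did not hold without WT DMSO 2 (adjusted p 0.0597) or WT bortezomib 1 (0.0519), the Pola1 difference in response with the Xist share as a covariate (-1.74, adjusted p 0.0517), or the Pold2 fall without knockout-labelled DMSO 1, DMSO 2 or bortezomib 2 (0.0855 to 0.125) or with only the 6 libraries fitted (0.0663). The Pole fall did not hold without knockout-labelled DMSO 2, DMSO 3, bortezomib 1, bortezomib 2 or bortezomib 3 (0.0521 to 0.094) or with the Xist share as a covariate (-1.03, adjusted p 0.0579).

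Okazaki fragments are trimmed by Fen1 and sealed by Lig1, and RPA coats the single strands. Rpa2 was at 175, 165 and 180.4 CPM in WT DMSO, 302, 268 and 253 in WT bortezomib, 191, 192 and 119 in knockout-labelled DMSO and 108, 95.7 and 129.5 in knockout-labelled bortezomib. The WT groups did not overlap, and the knockout-labelled groups overlapped only through DMSO library 3. Rpa2 rose in WT, at 0.66 (SE 0.19, adjusted p = 0.0267), and its responses differed by -1.25 (SE 0.26, adjusted p = 0.0129). Rpa3 was at 91.8, 98.7 and 175 CPM in WT DMSO, 278, 295 and 193 in WT bortezomib, 84.8, 127 and 84.2 in knockout-labelled DMSO and 48.6, 56.4 and 85.2 in knockout-labelled bortezomib. It rose in WT, at 1.07 (SE 0.27, adjusted p = 0.0179), and was -2.01 (SE 0.28, adjusted p = 0.000209) between the bortezomib groups. Lig1 was at 164, 168 and 101 CPM in WT DMSO, 195, 181 and 146 in WT bortezomib, 213, 185 and 109 in knockout-labelled DMSO and 97.4, 62.4 and 63.3 in knockout-labelled bortezomib. Its WT groups overlapped and its knockout-labelled groups did not, and it fell in the latter, at -1.18 (SE 0.26, adjusted p = 0.019). Of the 5 genes, 3 rose in WT (Fen1, Rpa2 and Rpa3), 1 fell in knockout-labelled HSCs, 5 were lower between the bortezomib groups and 3 differed in response. The Rpa3 rise did not hold without WT DMSO 1, WT DMSO 2, WT bortezomib 1 or WT bortezomib 2 (adjusted p 0.0676 to 0.0947), the Lig1 fall without knockout-labelled DMSO 1, DMSO 2 or bortezomib 2 (0.0865 to 0.1), or the Rpa2 difference with the Xist share as a covariate (-1.18, adjusted p 0.0613). Fen1 lies for most of its exonic length over the antisense gene Gm10143, so its counts are uncertain.

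Nucleotide supply had the largest median change of the 8 roles in WT (1.21) and between the bortezomib groups (-2.39), and all 5 genes rose in WT. Tk1, the thymidine kinase that salvages thymidine, was at 81.7, 93.3 and 106 CPM in WT DMSO, 240.1, 245 and 165 in WT bortezomib, 96.4, 95.1 and 54.6 in knockout-labelled DMSO and 35.5, 22.0 and 48.3 in knockout-labelled bortezomib. The WT bortezomib libraries were the highest and the knockout-labelled bortezomib libraries the lowest of the 12, without overlap. It had the largest difference between the bortezomib groups, -2.62 (SE 0.28, adjusted p = 7.94e-05), rose in WT at 1.21 (SE 0.27, adjusted p = 0.0096), fell in knockout-labelled HSCs at -1.22 (SE 0.27, adjusted p = 0.0199), and its responses differed by -2.43 (SE 0.38, adjusted p = 0.00494). Tyms, which makes dTMP, was at 120.0, 119 and 172 CPM in WT DMSO, 341, 344 and 241 in WT bortezomib, 130.4, 130.4 and 60.2 in knockout-labelled DMSO and 52.8, 42.9 and 74.4 in knockout-labelled bortezomib. Dut, which removes dUTP and yields the substrate of Tyms, was at 177, 170.44 and 242 CPM in WT DMSO, 546, 501 and 420.3 in WT bortezomib, 161, 225 and 125 in knockout-labelled DMSO and 71.0, 62.5 and 146 in knockout-labelled bortezomib. In both genes the WT groups were apart and the knockout-labelled groups overlapped through DMSO library 3. Dut rose in WT, at 1.32 (SE 0.29, adjusted p = 0.00899), and between the bortezomib groups Tyms was -2.44 (SE 0.29, adjusted p = 0.000117) and Dut -2.39 (SE 0.30, adjusted p = 0.000132). Their responses differed by -2.08 (SE 0.39, adjusted p = 0.00909) and -2.19 (SE 0.40, adjusted p = 0.00855). The reductase subunits Rrm1 and Rrm2 also rose in WT, with log2 fold changes of 0.71 and 1.34. Only Tk1 of the 5 fell in knockout-labelled HSCs, though all 5 had an unadjusted p under 0.05 there, and 5 were lower between the bortezomib groups and differed in response. The Tk1 rise did not hold without WT DMSO 1 (adjusted p 0.0502) or WT bortezomib 1 (0.052), nor its fall without knockout-labelled DMSO 1, DMSO 2, bortezomib 1 or bortezomib 2, with the Xist share as a covariate or with only the 6 libraries fitted (0.0612 to 0.0959); the Dut rise did not hold without WT DMSO 2 (0.0529), and with the Xist share as a covariate the Tyms and Dut differences in response were -1.80 and -1.82 (adjusted p 0.0552 and 0.05).

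Chromatin assembly behind the fork uses the CAF-1 subunits Chaf1a and Chaf1b, Uhrf1 brings maintenance methylation to new DNA, and Slbp binds histone mRNA. Uhrf1 was at 177, 166 and 112 CPM in WT DMSO, 255, 242 and 158 in WT bortezomib, 228, 232 and 117 in knockout-labelled DMSO and 116, 52.0 and 82.1 in knockout-labelled bortezomib. The WT groups overlapped and the knockout-labelled groups were apart, narrowly. Uhrf1 fell in knockout-labelled HSCs, at -1.20 (SE 0.30, adjusted p = 0.038), and its responses differed by -1.73 (SE 0.43, adjusted p = 0.0237). Slbp was at 193, 189 and 189 CPM in WT DMSO, 248, 218 and 237 in WT bortezomib, 203, 179 and 118 in knockout-labelled DMSO and 126, 116 and 121 in knockout-labelled bortezomib. Its 3 WT DMSO libraries were close together, the WT groups did not overlap, and between the bortezomib groups Slbp was -0.95 (SE 0.18, adjusted p = 0.000988). None of the 4 genes rose in WT by edgeR (1 had an unadjusted p under 0.05), 1 fell in knockout-labelled HSCs, 4 were lower between the bortezomib groups and 1 differed in response. The Uhrf1 fall did not hold without knockout-labelled DMSO 1, DMSO 2, bortezomib 2 or bortezomib 3 or with only the 6 libraries fitted (adjusted p 0.0533 to 0.17), nor its difference in response without WT DMSO 2, either of WT bortezomib 1 and 2, or knockout-labelled DMSO 1, DMSO 2 or bortezomib 2 (0.0562 to 0.0758). Much of the exonic length of Chaf1a lies over Ubxn6 on the other strand, so its counts are uncertain.

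**Figure D3:**
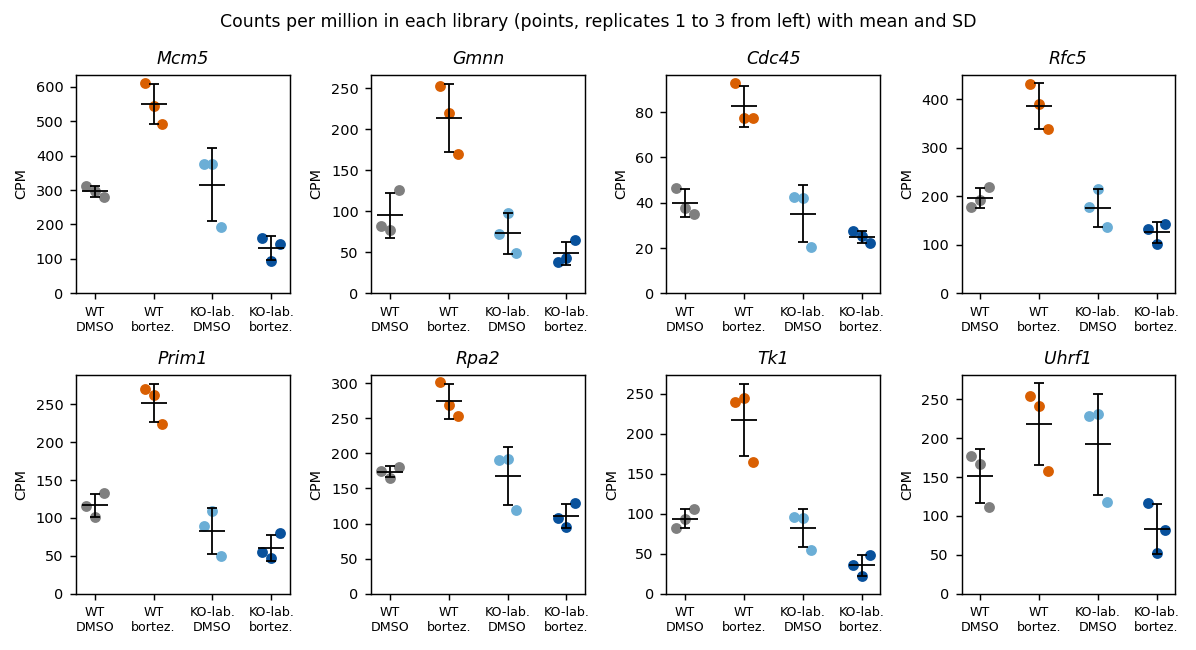
CPM of 1 gene from each role in each treatment library (points, replicates 1 to 3 from left), with the group mean (line) and SD (bar). The WT bortezomib points are the highest of each panel apart from Uhrf1, where they overlap the DMSO groups, and in Mcm5 and Tk1 the knockout-labelled bortezomib points are all below every other point.

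With DMSO no gene of the 43 passed between the genotypes, which does not show equal levels. Rfc3, Gins2 and Rfc4 had the smallest p between knockout-labelled and WT DMSO. Rfc3 was at 66.2, 67.0 and 64.7 CPM in knockout-labelled DMSO and 92.5, 78.8 and 94.3 CPM in WT DMSO, a log2 difference of -0.43 (SE 0.16, adjusted p = 0.446). Rfc4, whose values are given above, had one of -0.62 (SE 0.27, adjusted p = 0.51), and Gins2 one of -0.78 (SE 0.31, adjusted p = 0.47). The groups overlapped for Gins2 and not for the other two, and none passed the test by edgeR. Gins2 passed with no low-count filter (adjusted p = 0.0457), and without WT DMSO 3 Gins2 was at -0.43 and Rfc4 at -0.40 (adjusted p = 0.998 for both).

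By how often they were called, Tk1 and Mcm5 passed the test in all 4 of the WT, knockout-labelled, between-genotype bortezomib and interaction comparisons, 26 genes passed in 3, 5 in 2, 9 in 1 and Rfc1 in 0. Per length, on the RPKM scale, Mcm6 had the highest value of the 43 in WT DMSO, with a mean of 146.6 RPKM. Fen1 had the lowest, with 3.02 RPKM. Of the 2422 exonic bases of Fen1, 1909 lie over the antisense gene Gm10143 and the strand setting is not given. Its RPKM and its rank are therefore uncertain. The length used is that of all annotated exons of a gene, which also bears on the order. Fen1 rose with bortezomib in WT and the value of Mcm6 did not pass the test.

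The size of the WT response varied with gene length. Over the 43 genes, the log2 fold change in WT had a Pearson r of -0.51 with log2 exonic length (-0.14 over 16091 genes), a description across genes that share libraries and are not replicates. Of the 22 genes at or under the median length of 4259 bases, 16 rose in WT, with a median of 0.97; of the 21 longer ones, 6 rose, with a median of 0.43. In knockout-labelled HSCs 5 of the shorter and 6 of the longer genes fell, with medians of -0.61 and -0.86, and r was -0.28 (-0.03 over all genes). With DMSO, the difference between genotypes had an r of 0.51 (0.11 over all genes). Between the bortezomib groups r was 0.45 (0.17 over all genes), and the medians were -1.79 and -1.23. Rank (Spearman) values were -0.57, -0.25, 0.47 and 0.48 over the 43 genes, in the order given. Over all genes they were -0.23, -0.05, 0.24 and 0.25. The trend was not limited to bortezomib. Between untreated RFP single positive and double negative cells the Pearson r was 0.60, against 0.22 over 15319 genes. Offsets were also fitted to the genome-wide trend in the length and GC content of each gene's longest transcript, not in exonic length. With them, the medians over all 43 genes were 0.76 in WT, -0.71 in knockout-labelled HSCs and -1.62 between the bortezomib groups, while the median of all tested genes moved to 0.06, -0.01 and -0.05. The r with exonic length was not computed after these offsets.

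**Figure D4:**
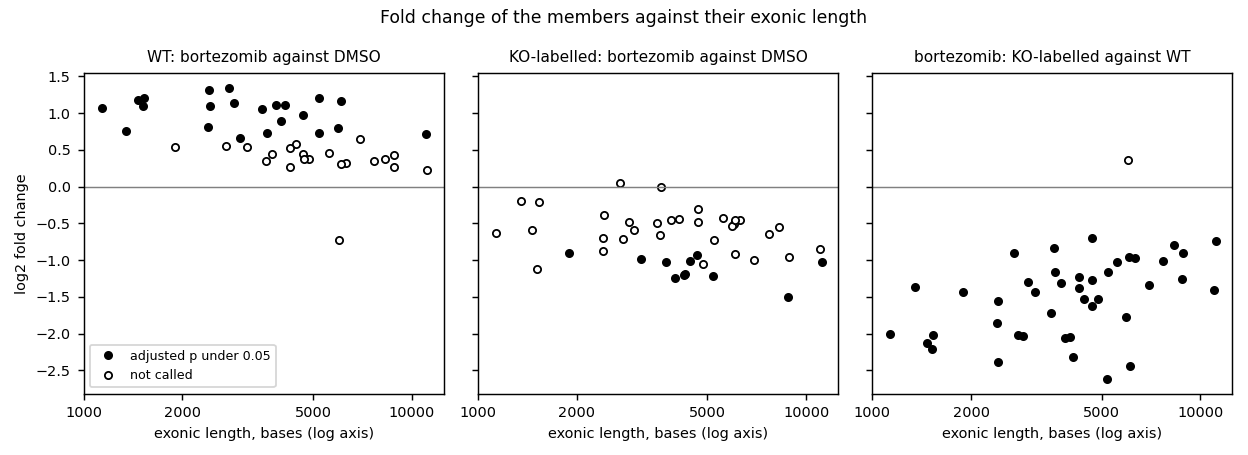
Log2 fold change of each of the 43 genes (points) against exonic length in bases on a log axis, for bortezomib against DMSO in WT (left) and knockout-labelled HSCs (middle), and for knockout-labelled against WT with bortezomib (right); filled points have an adjusted p under 0.05. In WT the short genes lie higher (r = -0.51), and in the right panel all points but Rfc1 are filled and below 0.

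Genes with and without the E2F letters shown earlier both took part in the response. In WT the median log2 fold change was 0.54 for the 13 genes with them, 0.76 for the 22 without and 0.78 for the 8 with no window at hand. In knockout-labelled HSCs the medians were -1.02, -0.61 and -0.56. The medians of the difference in response were -1.46, -1.48 and -1.30, and no test was made between these sets.

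Genes of the same pathway outside the 43 were counted in the same comparisons. Over all tested genes, 7.97% rose and 7.56% fell in WT, and 2.02% rose and 1.61% fell in knockout-labelled HSCs. Between the bortezomib groups 17.2% were higher and 15.3% lower. Of 31 other fork and origin genes, 10 rose and 1 fell in WT, 0 rose and 2 fell in knockout-labelled HSCs, and 1 was higher and 18 lower between the bortezomib groups. The origin recognition genes Orc6 and Orc4 rose in WT, at 1.04 (SE 0.23, adjusted p = 0.00937) and 0.73 (SE 0.17, adjusted p = 0.0128). Pold4, the smallest subunit of polymerase delta, went the other way, at -0.89 (SE 0.21, adjusted p = 0.0111) in WT, and was the 1 gene of the list higher between the bortezomib groups, at 1.32. The fork nuclease Dna2 and the fork protection gene Timeless fell in knockout-labelled HSCs, at -1.04 (SE 0.27, adjusted p = 0.0397) and -1.13 (SE 0.29, adjusted p = 0.0427). Between the bortezomib groups Rnaseh2b, Tipin and Dscc1 had the smallest p, with log2 fold changes of -1.77, -1.67 and -2.02. The medians of the list were 0.58 in WT, -0.47 in knockout-labelled HSCs and -0.81 between the bortezomib groups.

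Of 36 other nucleotide synthesis genes, 16 rose and 2 fell in WT, 0 rose and 7 fell in knockout-labelled HSCs, and 1 was higher and 31 lower between the bortezomib groups. In WT the dCTP pyrophosphatase Dctpp1 rose by 1.65 (SE 0.32, adjusted p = 0.00509), the CTP synthase Ctps by 1.18 (SE 0.26, adjusted p = 0.00882) and the adenine salvage enzyme Aprt by 0.91 (SE 0.20, adjusted p = 0.00993). In knockout-labelled HSCs the falls with the smallest p were those of Cad, which starts pyrimidine synthesis, at -1.56 (SE 0.29, adjusted p = 0.00663), and of the purine synthesis enzymes Pfas and Atic, at -1.15 (SE 0.24, adjusted p = 0.0149) and -0.84 (SE 0.19, adjusted p = 0.0242). The 2 that fell in WT, Tk2 and Samhd1, were singled out after their values were seen; Samhd1, which breaks down deoxynucleotides, was also the 1 gene higher between the bortezomib groups, at 1.56. The medians were 0.61 in WT, -0.61 in knockout-labelled HSCs and -1.14 between the bortezomib groups.

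Genes of G1/S control were called in both directions. Their falls in WT and their higher calls between the bortezomib groups were near the shares over all genes. Of 27 E2F, RB and G1/S genes, 10 rose and 2 fell in WT: the cyclins Ccne1 and Ccne2 rose, at 2.07 (SE 0.41, adjusted p = 0.00599) and 1.48 (SE 0.29, adjusted p = 0.00573), and Rbl2, a pocket protein that represses E2F targets in resting cells, fell, at -0.82 (SE 0.15, adjusted p = 0.00412). In knockout-labelled HSCs 2 rose and 2 fell: the CDK inhibitor Cdkn1a rose, at 1.76 (SE 0.32, adjusted p = 0.00651), while E2f1 and Cdkn1c fell, at -1.06 (SE 0.23, adjusted p = 0.0161) and -1.21 (SE 0.25, adjusted p = 0.0146). Cdkn1a was also 1 of the 10 that rose in WT. The remaining members of these small counts, Tfdp2 (fell in WT, -0.67) and Lin37 (rose in knockout-labelled HSCs, 0.76), were singled out after their values were seen. Between the bortezomib groups 4 were higher (17.2% of all genes) and 12 lower (15.3% of all genes), Ccne2, E2f1 and Ccne1 at -2.65, -1.92 and -2.74. Of 20 checkpoint and fork repair genes, 4 rose in WT and 0 fell, and 0 rose and 2 fell in knockout-labelled HSCs. The checkpoint kinase Chek1 was among both, at 1.31 (SE 0.29, adjusted p = 0.00923) and -1.16 (SE 0.29, adjusted p = 0.0364), as was the histone gene H2afx, at 0.82 and -0.77. Of 20 mitosis genes, 9 rose in WT, Cdk1 at 1.22 (SE 0.21, adjusted p = 0.00361) among them; 0 fell in knockout-labelled HSCs by edgeR (0 had an unadjusted p under 0.05), and 7 were lower between the bortezomib groups. The interaction was passed by 10 fork and origin, 18 nucleotide synthesis, 11 G1/S, 6 checkpoint and 2 mitosis genes with the lower response in knockout-labelled HSCs, and by 1 gene of each of the first 3 lists, Pold4, Samhd1 and Rbl2, with the higher one. Over all genes 4.71% passed with the lower response and 4.35% with the higher one.

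Markers of other cells and of HSC identity also differed between these groups. For the counts below, 7.97% of all genes rose and 7.56% fell in WT, and 1.61% fell in knockout-labelled HSCs. Between the bortezomib groups 17.2% of all genes were higher and 15.3% lower. The summed level of 12 HSC identity genes was 4546, 4644 and 4095 CPM in WT DMSO and 2393, 2616 and 2793 CPM in WT bortezomib; 10 of 12 fell and 0 rose. In knockout-labelled HSCs it was 4189, 3743 and 4665 CPM and 3625, 3265 and 3287 CPM, with 2 of 12 lower. Cd48, the marker that the sort excludes, was at 11.3, 12.4 and 10.0 CPM in WT DMSO, 35.0, 30.2 and 54.3 CPM in WT bortezomib, 13.8, 20.1 and 17.7 CPM in knockout-labelled DMSO and 8.64, 3.57 and 14.4 CPM in knockout-labelled bortezomib. The sum of 11 erythroid markers ranged from 73.2 to 98.6 CPM in WT DMSO, 195 to 226 in WT bortezomib, 97.6 to 227 in knockout-labelled DMSO and 59.5 to 82.3 in knockout-labelled bortezomib, with Slc4a1 at 0 in WT bortezomib. Hbb-bt, singled out after its values were seen, carried most of the larger sums, with means of 56.3, 169.6, 133 and 22.6 CPM in that order. Of the 9 erythroid markers tested, 2 rose and 1 fell in WT, and between the bortezomib groups 1 was higher and 1 lower in knockout-labelled HSCs, with 7 of 9 values above 0 and a median of 2.11, so the list's median and its sum differ in sign. The 12 T and NK cell markers summed to 105 to 109.6 CPM, 166 to 237 CPM, 101 to 153 CPM and 62.3 to 135 CPM in the same order, with Cd3e, Cd3g, Cd8a, Gzma and Ncr1 at 0 in all 4 groups. The 12 monocyte and macrophage markers summed to 94.2 to 128 CPM, 146 to 259.9 CPM, 65.0 to 98.6 CPM and 105 to 111 CPM, and 6 of 11 tested were lower between the bortezomib groups. The 10 progenitor markers, Cd48 included, summed to 868 to 997 CPM, 791 to 1027 CPM, 927 to 1026 CPM and 735 to 984 CPM, overlapping in all 4 groups. The 11 endothelial and stromal markers summed to 80.9 to 109 CPM, 44.6 to 68.9 CPM, 93.3 to 154 CPM and 123 to 142 CPM. The part of these cells in the levels of the 43 genes was not tested.

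**Figure D5:**
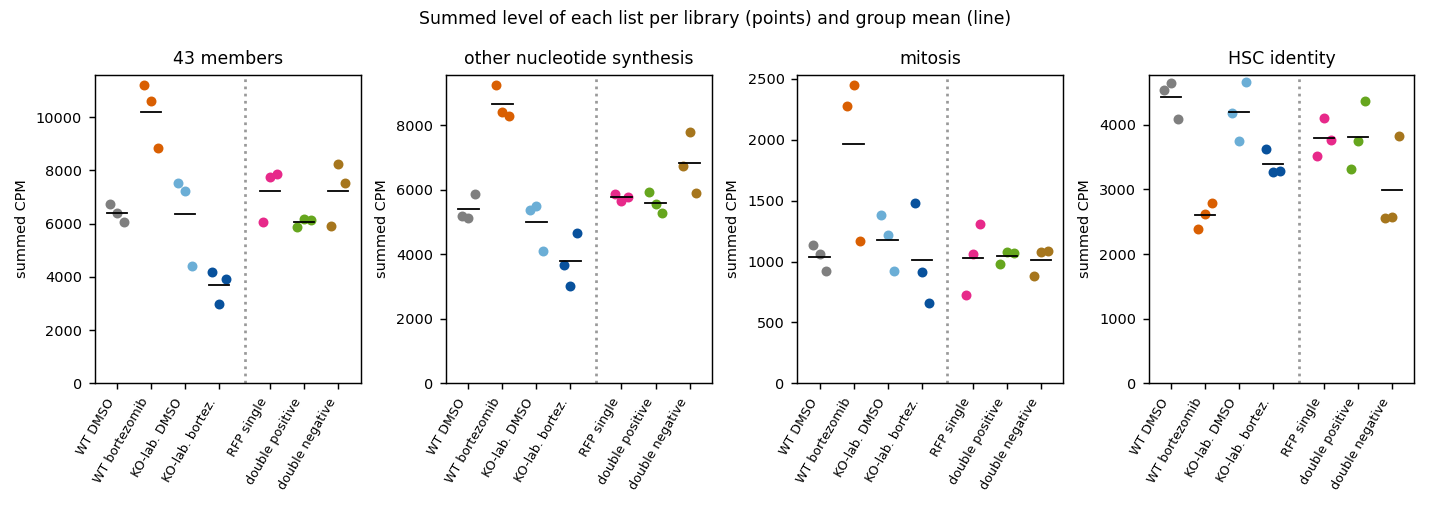
Summed CPM per library (points) and group mean (line) of the 43 genes, of 36 other nucleotide synthesis genes, of 20 mitosis genes and of 12 HSC identity genes; a dotted line parts the treatment groups from the reporter groups, which were normalised separately. The 43 genes and the nucleotide synthesis genes are highest in WT bortezomib, where the HSC identity genes are lowest.

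In untreated reporter HSCs none of the 43 genes passed the test. The 43 genes summed to 6051, 7744 and 7850.3 CPM in RFP single positive, 5887, 6165 and 6134 CPM in double positive and 5915, 8248 and 7532 CPM in double negative libraries. The double positive libraries lay close together, and the other two groups overlapped them. No gene differed between double positive and double negative cells by edgeR (0.0065% of 15375 genes were called higher and 0% lower), DESeq2 or limma voom; 14 of 43 had an unadjusted p under 0.05, 1 higher and 13 lower. The groups did not overlap for 14 lower genes (32.6%) and 1 higher gene, against 4.94% and 6.28% of all genes, and the median was -0.36. Without double negative library 2 the median was -0.21. Rrm2, Dut and Gmnn had the smallest p. Rrm2 was at 86.3, 66.3 and 89.5 CPM in double positive and 107, 212 and 134 CPM in double negative libraries, a log2 fold change of -0.90 (SE 0.26, adjusted p = 0.555), and of -0.58 without double negative library 2. Dut was at 229, 253 and 168 CPM and 343, 418 and 259 CPM, -0.65 (SE 0.21, adjusted p = 0.555), and Gmnn at 90.6, 94.4 and 71.8 CPM and 130.1, 159.9 and 104 CPM, -0.62 (SE 0.20, adjusted p = 0.555). In all 3 every double positive library was under every double negative library. Cd48 was at 8.17, 10.3 and 12.5 CPM in the double positive and 21.1, 54.1 and 17.7 CPM in the double negative libraries. The 12 T and NK cell markers summed to 89.4 to 115 CPM and 159.9 to 214 CPM, the 10 progenitor markers to 516 to 701 CPM and 701 to 949 CPM, and the 12 HSC identity genes to 3309.9 to 4362 CPM and 2554 to 3830.0 CPM. The 12 monocyte and macrophage markers summed to 95.3 to 156 CPM in double positive and 88.1, 210 and 59.0 CPM in double negative libraries. For the 11 erythroid markers the values were 41.9 to 121 CPM and 89.4, 192 and 70.1 CPM. Double negative library 2 was thus the highest of its group in both lists. Of the 7 progenitor markers tested 6 had values below 0 and of the 12 HSC identity genes 11 had values above 0, none called in either list. The part of these cells in the differences was not tested. Within each reporter group library 2 had a high Xist share (88.1% to 99.9%) and the other two a low one (0% to 10.2%). The 43 genes' values in this comparison had a Pearson r of 0.49 with log2 exonic length, against 0.13 over 15319 genes.

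Between RFP single positive and double positive cells, no gene passed by edgeR (0% of all genes), DESeq2 or limma voom and 0 had an unadjusted p under 0.05; 6 genes did not overlap, all higher (13.95%, against 3.84% of all genes), and the median was 0.25. Pole2, Pcna and Rpa2 had the smallest p, with log2 fold changes of 0.52 (SE 0.25, adjusted p = 1), 0.33 (SE 0.17, adjusted p = 1) and 0.30 (SE 0.16, adjusted p = 1). Pcna was at 237, 237 and 285 CPM in single positive and 202, 215 and 186 CPM in double positive libraries, Rpa2 at 193, 209 and 241 CPM and 181, 164 and 178 CPM, and Pole2 at 38.1, 45.7 and 42.4 CPM and 35.0, 27.7 and 25.6 CPM. The single positive values were above the double positive ones in every library for these genes. The 12 monocyte and macrophage markers summed to 45.3 to 65.1 CPM in single positive and 95.3 to 156 CPM in double positive libraries, all 10 tested had values below 0 with a median of -1.59, and their part in the result was not tested. Between single positive and double negative cells, again no gene passed (0% of all genes; 5 had an unadjusted p under 0.05, 1 higher and 4 lower), and the median was -0.06, with 0.11 when double negative library 2 was left out and -0.17 when single positive library 3 was. Groups did not overlap for 4 lower genes (9.30%, against 5.52% of all genes) and for 1 higher gene (against 7.64%). Gins1, Dut and Rpa3 had the smallest p, at -0.88 (SE 0.27, adjusted p = 0.651), -0.52 (SE 0.21, adjusted p = 0.651) and -0.55 (SE 0.24, adjusted p = 0.651); without double negative library 2 Dut was at -0.34 and Rpa3 at -0.36. Gins1 was at 25.2, 22.2 and 28.6 CPM in single positive and 51.2, 51.8 and 37.2 CPM in double negative libraries, which did not overlap, and Rpa3 at 104, 99.8 and 98.4 CPM and 162, 186 and 96.2 CPM, which did. A p that misses the threshold with 3 libraries a group does not show that these populations have equal levels.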

How the data were processed

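RNA of sorted mouse HSCs was amplified with SMART-seq2 and sequenced, per the labels' protocols. The authors deposited whole-number read counts per gene, one table for all 21 libraries in 7 groups of 3; the submitters' processing notes name Bowtie 1.0.0, STAR 2.6.1 and HTSeq 0.7.1, with GRCm38.p4 and GRCh38, without saying which build had which role. Strand setting and annotation release: not given in the sources used here. Without a strand setting, overlapping antisense genes cannot be separated, and full-length amplification leaves no molecular identifiers, so counts include amplification noise. Cdc45, Rfc2, Pole, Lig1, Tk1 and Slbp also share exonic bases with a gene on the other strand.

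Each experiment was fitted on its own (12 and 9 libraries) with edgeR 4.0.16 in R 4.3.3: filterByExpr, TMM scaling, the quasi-likelihood test and Benjamini-Hochberg adjustment over all 16149 or 15375 genes tested, called at an adjusted p under 0.05. CPM values use TMM library sizes, and RPKM values divide them by exonic length from GENCODE M21 (GRCm38), which held 98.9% of the gene identifiers. DESeq2 1.42.0, limma 3.58.1 (voom with quality weights), another scaling, no filter, smaller fits, a replicate block, covariates, offsets and leaving out libraries were tried as alternatives. On simulated counts of the WT bortezomib comparison (15598 genes) the test recovered 66% of 4-fold and 34% of 2-fold changes. For RFP single positive against double positive cells (14689 genes) it recovered 67% and 17%. Each simulation changed 200 genes, whereas 2508 of 16149 were called in the WT data. The adjusted threshold therefore differs from that in the data, and these rates need not carry over. Libraries of a group were not duplicates: the lowest chi-square per degree of freedom between any pair was 11.9.

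The 43 genes and the comparison lists were chosen with earlier results of these data known. Full statistics are given for at most 10 called members per comparison, those with the smallest p with at least 1 from each role that had a called member, or for the 3 with the smallest p where none was called. Values in every library are given for up to 3 members per role, those called in most comparisons. From each other list, up to 3 called genes with the smallest p are named; exceptions are stated.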

Additional observations from a re-analysis of the deposited data

Results flagged for a closer look

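The response to bortezomib differed between the genotypes, by edgeR's test of the interaction with Benjamini-Hochberg adjustment, for 30 of the 43 genes. In each the log2 response of the knockout-labelled libraries was the lower one. The log2 difference of responses was -2.43 for Tk1, -2.14 for Mcm5, -1.46 for Rfc5, -1.77 for Pola1 and -1.52 for Cdt1. It was -1.25 for Rpa2, -1.54 for Cdc45, -1.73 for Uhrf1, -2.19 for Dut and -2.08 for Tyms. Xist shares also differed between these groups. With that share as a covariate 13 of the 43 genes (30.2%) and 0.774% of all genes passed in this direction, and Pola1, Cdc45, Rpa2, Dut and Tyms, at -1.74, -1.67, -1.18, -1.82 and -1.80, had adjusted p of 0.05 to 0.0613.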

How the results depend on the processing

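The 42 genes lower in knockout-labelled than in WT HSCs with bortezomib kept that count under each alternative other than leaving out libraries, where it ranged from 36 to 42. With another scaling (RLE size factors) the other counts also stayed the same: 22 higher in WT, 11 lower in knockout-labelled HSCs and 30 for the interaction. The WT count of higher genes, 22, was 24 by DESeq2, 30 by limma voom, 14 with the Xist share as a covariate and 2 to 21 when each library was left out in turn. The WT count of lower genes, 0, was 1 under limma voom, no low-count filter, the replicate block and without the 3 libraries that stand apart. The knockout-labelled count of lower genes, 11, was 21 by DESeq2, 24 by limma voom, 23 without the filter, 18 with length and GC offsets, 23 without the 3 libraries and 4 with only the groups compared, and 1 to 22 when each library was left out. The count between genotypes with DMSO, 0 lower, was 1 without the filter. The interaction count, 30, was 39 by DESeq2, 42 by limma voom, 13 with the Xist share and 13 to 35 when each library was left out. The calls over all genes also fell in the fits with the lowest counts, and rose with DESeq2 and limma voom. For the interaction, 7.74% and 14.8% of all genes had the lower response with these 2 tools, against 4.71% by edgeR. The members' median kept its sign in WT, in knockout-labelled HSCs and for the interaction (0.58 to 0.76, -0.89 to -0.55 and -1.64 to -1.34 when each library was left out). The cause of these changes was not tested. Of the values of named genes, 23 of 150 lost their call in WT, 37 of 150 in knockout-labelled HSCs, 0 of 150 between the bortezomib groups and 14 of 200 for the interaction, and none reversed. The median between single positive and double negative cells, -0.06, ranged from -0.17 to 0.11 when each library was left out.

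Replicate numbers are shared by the groups but are not stated to mark a litter, batch or day. Deviations of same-numbered libraries correlated at 0.1 or less in at least 1 pair of each set of groups. The main fits did not pair the libraries. Every library correlated best with its own number only between the single and double positive groups. Some values went with the numbers. Library 2 alone had a high Xist share in each reporter group. Library 3 of every treatment group but knockout-labelled DMSO stood apart on the third component. WT DMSO 3 and knockout-labelled bortezomib 3 correlated at 0.200. Xist shares in the treatment groups did not follow the number. Whether same-numbered libraries share a source was not tested. With the replicate block, 24 genes were higher and 1 lower in WT (9.77% and 9.05% of all genes). It left 16 lower in knockout-labelled HSCs (2.35%), 42 lower between the bortezomib groups (16.8%) and 36 lower in response (6.46%). The counts in the reporter comparisons stayed at 0. Length and GC offsets moved the median of all genes between the bortezomib groups from 0.08 to -0.05, and the higher calls there from 2770 of 5234 to 1938 of 4918; in WT they moved from 1287 of 2508 to 1848 of 2802. With 3 libraries a group, 2-fold changes were often missed in simulated counts with 200 changed genes, a setting unlike that of the treatment data.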
